A study of Mus musculus with 12 samples.

Results

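The 10 genes Pcdh7, Aldh1a3, Gpr65, Smpdl3b, Vat1l, Gng11, Scin, Dkkl1, Ndrg2 and Ptprk were followed over 12 mouse expression arrays, out of 14860 genes measured. They were picked because their log2 values do not overlap between 3 groups and run in 1 direction from cells without miR-155, through cells with their own miR-155, to cells with added miR-155, or because miR-155 raised them strongly. All 10 met the first condition. Over all genes, 297 of 14860 were ordered in this way, 111 rising (0.747%) and 186 falling (1.25%) toward added miR-155, and of the 10 genes 6 rose and 4 fell. The order itself chose the genes, so it is described here with no test. Each gene is measured by 1 probe set. No probe set was named for miR-155, and the labels give no dose, so the order is one of labelled groups and not of a measured miR-155 level.

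All cultures were primary bone marrow progenitor cells transduced with Hoxa9, a homeobox transcription factor able to keep myeloid progenitors dividing, on a retroviral MSCV construct. The donors were labelled C57B/6, female and 12 weeks old, treated with fluorouracil, and the cells grew in DMEM with serum, IL3, SCF and IL6. The 5 groups were Hoxa9 with the vector MIG in miR-155 knockout cells (3 arrays, called knockout here), Hoxa9 with MIG in wild-type cells (3 arrays, called MIG), Hoxa9 and added miR-155, likewise wild type (3 arrays, called miR-155), Hoxa9 and Meis1 (1 array, called Meis1) and Hoxa9 beside an empty MIY vector (2 arrays, called MIY), both also wild type. The title of the Meis1 array carries the tag 3w, which the labels do not explain, so whatever it marks cannot be told apart from Meis1 in the comparisons of that array. The series' design text sets miR-155 against MIY and speaks of independent experiments, while the titles of the miR-155 arrays pair them with MIG. The share of cells that carried each vector is not given in the sources used here, and a change in the share of 1 cell type cannot be told apart from a change in RNA per cell in such cultures.

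A microRNA is a short RNA that guides a silencing complex to messenger RNAs whose 3′ ends pair with its seed, bases 2 to 8, and lowers their level. MiR-155 is processed from the BIC transcript and is known for its roles in activated lymphocytes and myeloid cells. Both mature strands, from RefSeq (GRCm38.p6), are shown because the perturbation is defined by them, with the seed in capitals. They lie on the plus strand of chromosome 16, at chr16:84714143-84714165 and chr16:84714182-84714202.
mmu-miR-155-5p: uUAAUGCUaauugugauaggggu
mmu-miR-155-3p: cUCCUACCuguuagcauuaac
No other mouse mature microRNA in that table has either seed. The DNA letters that pair with the seed of the 5p strand are AGCATTA. Transcript ends of the 10 genes were not analysed here, so they were not searched for this word.

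The 10 genes lie on 8 chromosomes (GRCm38.p6, names and positions from RefSeq), with Aldh1a3 and Dkkl1 on chromosome 7 and Gpr65 and Scin on chromosome 12. Of the 6 rising genes, Pcdh7 encodes a protocadherin of the cell surface, Aldh1a3 a dehydrogenase that makes retinoic acid from retinaldehyde, and Gpr65 a receptor of blood cells that senses protons and raises cyclic AMP. Smpdl3b encodes a membrane-anchored phosphodiesterase related to acid sphingomyelinase, Gng11 a gamma subunit of heterotrimeric G proteins, and Vat1l a protein named for its likeness to vesicle amine transport protein 1. Of the 4 falling genes, Scin encodes the actin-severing protein scinderin, Dkkl1 a secreted relative of the Dickkopf Wnt inhibitors known from the testis, Ndrg2 a member of the N-myc downstream-regulated family, and Ptprk a receptor tyrosine phosphatase that binds its own kind on neighbouring cells.

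Promoters are shown for 3 of the genes, from 250 bases before to 50 after the start, because 1 group carries the transcription factor Meis1. Gpr65 rises and Scin falls, and both hold the Meis word TGACAG. Ptprk has the clearest gaps among falling genes and is rich in CG. Capitals mark TGACAG and the PU.1 word GAGGAA, each sought on both strands, so that GAGGAA can read TTCCTC.
Gpr65, chr12:98268385-98268684, plus strand: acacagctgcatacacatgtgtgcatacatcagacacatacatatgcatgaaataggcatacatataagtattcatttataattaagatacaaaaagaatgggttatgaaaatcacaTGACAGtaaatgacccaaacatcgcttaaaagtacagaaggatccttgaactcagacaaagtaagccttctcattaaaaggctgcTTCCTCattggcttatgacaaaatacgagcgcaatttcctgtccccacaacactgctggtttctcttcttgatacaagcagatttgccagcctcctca
Scin, chr12:40134179-40134478, minus strand: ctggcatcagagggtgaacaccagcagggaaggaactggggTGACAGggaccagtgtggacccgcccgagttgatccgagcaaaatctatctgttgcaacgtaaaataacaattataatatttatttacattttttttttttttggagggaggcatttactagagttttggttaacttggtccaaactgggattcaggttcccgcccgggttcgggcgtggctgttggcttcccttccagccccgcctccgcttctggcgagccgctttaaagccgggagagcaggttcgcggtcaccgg
Ptprk, chr10:28074570-28074869, plus strand: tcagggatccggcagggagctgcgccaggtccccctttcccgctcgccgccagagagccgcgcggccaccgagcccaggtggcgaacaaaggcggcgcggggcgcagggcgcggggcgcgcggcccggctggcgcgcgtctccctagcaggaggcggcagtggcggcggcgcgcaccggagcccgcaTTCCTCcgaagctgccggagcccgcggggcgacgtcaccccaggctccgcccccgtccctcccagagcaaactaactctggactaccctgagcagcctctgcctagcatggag
The table held 10 promoters of 8 of the genes, 3 of them for Ndrg2. TGACAG was found in 2 of these 10 promoters (Gpr65 and Scin), against 19.2% of all 32851 promoters. GAGGAA was found in 3 of 10 (Gpr65, Ptprk and Vat1l), against 28.3%. The E-box CACGTG was in Smpdl3b alone, against 7.15% of all promoters. The STAT word TTCNNNGAA (8.3% of all), the GATA word AGATAA (11.2%) and the Hox-Pbx word TGATTNAT (3.22%) were in none of the 10. CG dinucleotides numbered 3 in the Gpr65 promoter and 38 in that of Ptprk, against a median of 7 over all promoters. A match to such a word is no measured binding site.

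Some facts about the arrays bear on what follows. The 9 arrays of the 3 ordered groups were alike, with correlations of 0.981 to 0.991 between any pair. The MIY arrays correlated at 0.980 with each other and at 0.950 to 0.966 with those 9, and the Meis1 array at 0.936 to 0.945 with MIY. The Meis1 array correlated at 0.962 to 0.966 with MIG, 0.963 to 0.967 with the knockout and 0.968 to 0.971 with miR-155. Of 2 measured Y-linked genes, Eif2s3y and Kdm5d, the log2 of the summed level was 3.87 to 4.06 on the 9 arrays, 9.76 to 9.84 for MIY and 8.72 for Meis1, although all donors were labelled female. Among the 9 arrays the 9 mast cell and basophil markers summed to 13.84 to 13.91 in the knockout, 13.83 to 14.06 in MIG and 12.58 to 12.82 with miR-155. The same sums for 10 monocyte and macrophage markers were 13.76 to 14.04, 13.93 to 14.01 and 13.04 to 13.18, and for 6 eosinophil markers 10.96 to 11.33, 11.53 to 11.99 and 9.74 to 9.99. Those for 7 neutrophil markers were 14.56 to 14.59, 14.45 to 14.59 and 14.32 to 14.45. Megakaryocyte and red cell markers (6 measured) summed to 10.78 to 10.93, 10.44 to 10.55 and 10.25 to 10.40, a sum in the order of the falling genes. Singly, Gata1, Itga2b and Vwf kept this order without overlap. Pf4, the brightest (mean 9.58, 9.21 and 9.29), Gp9 and Klf1 did not. Lymphoid markers (6) summed to 9.15 to 9.49, 9.25 to 9.55 and 8.37 to 8.53, a sum led by Il7r (mean 8.66, 8.87 and 7.18), while the arrays of the miR-155 and MIG groups overlapped for each of the other 5. Stromal markers (8) lay at 8.84 to 8.88, 8.83 to 8.97 and 8.92 to 9.02, with 4 of the 8 averaging under 5 in each group, and epithelial markers (4) at 7.80 to 7.90, 7.77 to 7.89 and 7.57 to 7.76. The 7 progenitor markers, which include Kit, Cd34 and the pan-leukocyte gene Ptprc, summed to 14.37 to 14.42, 14.37 to 14.39 and 14.04 to 14.19. This sum was led by Mpo (mean 13.37, 13.36 and 13.02). Myb (11.89, 11.79 and 11.66) and Spi1 (11.68, 11.73 and 11.22) were also lowest with miR-155. Cd34 was higher with miR-155 than in MIG (10.23, 9.89 and 10.05), and Kit was lowest in the knockout (9.33, 9.91 and 9.54). The part of these shifts in the results on the 10 genes was not tested.

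Pcdh7 had the clearest steps of the rising genes. Its log2 values were 6.78, 6.87 and 6.88 on the knockout arrays, 7.42, 7.37 and 7.44 on the MIG arrays and 8.29, 8.11 and 8.21 on the miR-155 arrays. The smallest gap between neighbouring groups was 0.49, rank 2 among the 111 rising genes, whose median gap was 0.03. From knockout to MIG it gained 0.56 ± 0.07 (limma SE, n = 3 per group) and from MIG to miR-155 another 0.79 ± 0.07, so that 41.6% of the whole span of 1.36 lay below MIG.

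Aldh1a3 and Gpr65 had a lower step at least as large as the upper one, with an upper minus lower difference of -0.34 ± 0.28 for Aldh1a3 and -0.06 ± 0.25 for Gpr65. Aldh1a3 read 7.27, 7.32 and 7.07 in the knockout, 7.94, 8.21 and 8.31 in MIG and 8.59, 8.54 and 9.10 with miR-155. Its steps were 0.93 ± 0.16 and 0.59 ± 0.16, and 61.3% of its span of 1.52 lay below MIG. That made it the rising gene with the greatest share of its span between knockout and MIG. The 3 knockout values of Gpr65 were 7.62, 7.97 and 7.58, its MIG values 8.30, 8.37 and 8.43, and its miR-155 values 8.73, 8.93 and 9.22. Steps of 0.65 ± 0.14 and 0.59 ± 0.14 divided its span of 1.24 nearly evenly.

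Vat1l and Smpdl3b gained most of their span at the upper step. For Vat1l the arrays read 6.29, 6.57 and 6.23 in the knockout, 6.75, 6.75 and 6.73 in MIG and 8.05, 8.06 and 8.03 with miR-155. Its MIG and miR-155 values were nearly the same on the 3 arrays of each group, with SDs of 0.01 and 0.02, while the knockout had an SD of 0.18. The step from knockout to MIG was 0.38 ± 0.10 and that from MIG to miR-155 1.30 ± 0.10, a difference between steps of 0.92 ± 0.17 and 22.5% of the span below MIG. Smpdl3b read 6.73, 6.79 and 6.61 in the knockout, 7.19, 7.25 and 7.14 in MIG and 8.39, 8.44 and 8.28 with miR-155. Its steps were 0.48 ± 0.25 and 1.18 ± 0.25, with 29.1% of the span of 1.66 below MIG. The difference between its steps was 0.69 ± 0.44 in the fit on all arrays. Most of that error comes from the MIY arrays (SD 0.94), which enter neither step. In a fit on the knockout, MIG and miR-155 arrays alone, each step had an error of 0.07 for Smpdl3b and 0.09 for Vat1l. That fit was chosen after the data were seen, and on it the steps of Smpdl3b were not less certain than those of Vat1l.

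Gng11 had the smallest span of the rising genes, 1.08 ± 0.28. Its values were 5.64, 5.83 and 5.25 in the knockout, 6.00, 6.17 and 6.04 in MIG and 6.46, 6.55 and 6.94 with miR-155. The gap between neighbouring groups was 0.17 at its smallest, and that of Vat1l 0.16, the narrowest among the rising members. Just outside the rule lay Polr2h, a subunit of RNA polymerase, with a span of 1.18 and an overlap of 0.09 between neighbouring groups.

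**Figure D1:**
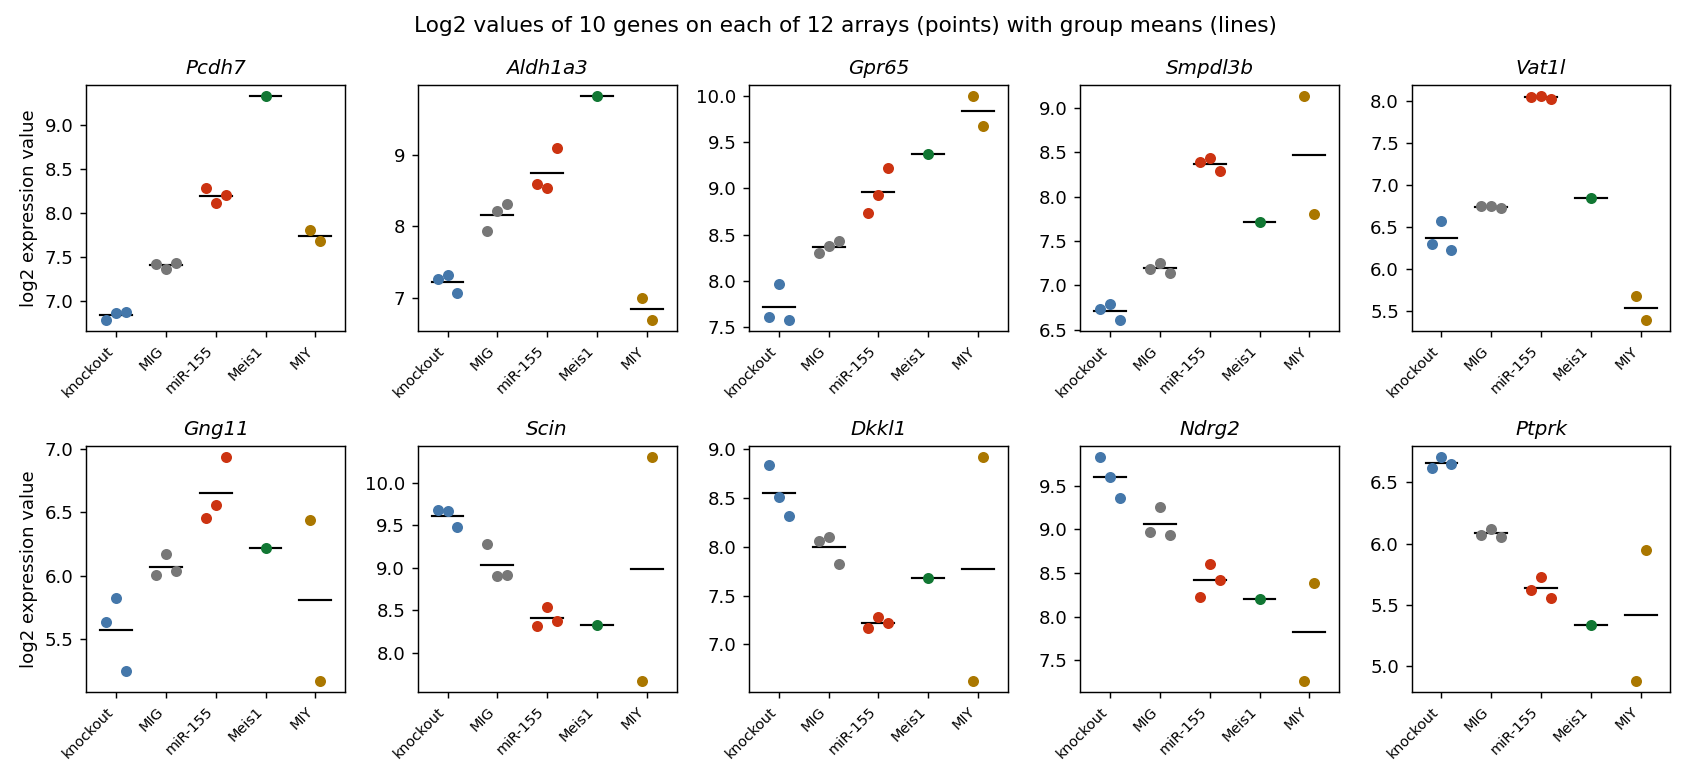
Log2 expression value (vertical axis, own range per panel) of each of the 10 genes on each of the 12 arrays, by group, with points for arrays and lines for group means. Knockout, MIG and miR-155 arrays do not overlap in any panel, while the 2 MIY arrays lie far apart for Smpdl3b, Gng11, Scin, Dkkl1, Ndrg2 and Ptprk.

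The 4 falling genes had 41.9% to 56.2% of their span between knockout and MIG. Ptprk read 6.62, 6.71 and 6.65 in the knockout, 6.07, 6.12 and 6.05 in MIG and 5.62, 5.73 and 5.56 with miR-155. Its smallest gap, 0.33, was rank 1 among the 186 falling genes. The steps were -0.57 ± 0.21 and -0.45 ± 0.21 (SE).

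Ndrg2 stood at 9.83, 9.60 and 9.36 in the knockout, 8.97, 9.26 and 8.94 in MIG and 8.23, 8.61 and 8.42 with miR-155. Its smallest gap of 0.10 was the narrowest of the 10 genes. Among unordered genes with a span of at least 1.02 in size, the eosinophil lectin Siglecf came closest to the falling order. The neighbouring groups of Siglecf overlapped by less than 0.01 on a span of -1.12. The steps of Ndrg2 were -0.54 ± 0.25 and -0.64 ± 0.25.

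Scin fell from 9.68, 9.67 and 9.48 in the knockout to 9.28, 8.90 and 8.91 in MIG and 8.31, 8.54 and 8.37 with miR-155. Dkkl1 had 8.84, 8.51 and 8.32 in the knockout, 8.06, 8.10 and 7.83 in MIG and 7.16, 7.28 and 7.22 with miR-155. Their spans from knockout to miR-155 were -1.20 ± 0.49 and -1.33 ± 0.44. These errors come from a spread shared over all 12 arrays, to which the pair of MIY arrays adds most, and in a fit on the 9 arrays alone they were 0.11 and 0.13. The spans of Smpdl3b and Ptprk likewise had errors of 0.07 and 0.06 in that fit, which was chosen after the data were seen.

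**Figure D2:**
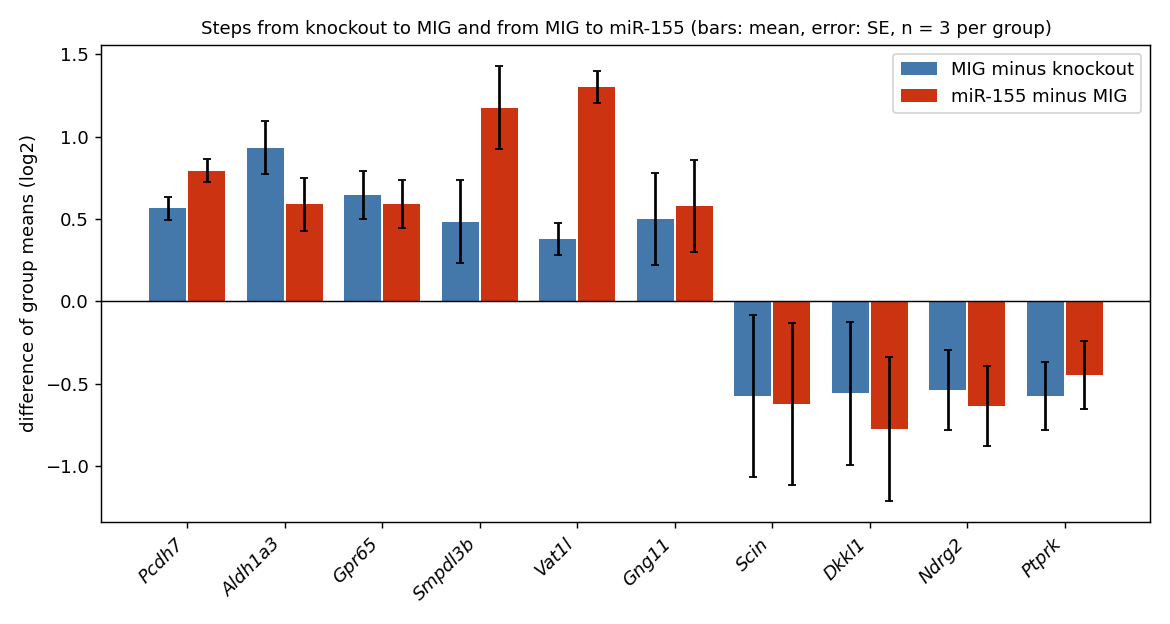
Difference of group means (log2, vertical axis) at the lower step, MIG minus knockout (blue), and at the upper step, miR-155 minus MIG (red), for the 10 genes, with limma standard errors from the fit on 12 arrays and 3 arrays per group. Vat1l and Smpdl3b have the larger part of their rise at the upper step (1.30 and 1.18), and Aldh1a3 at the lower one (0.93).

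The title of the series ties miR-155 to Meis1, a homeobox partner of Hoxa9, so the place of the Meis1 array among the other groups was examined. It is a single array with no replicate, so the errors and p-values of its comparisons borrow the spread within the other groups. Its Y-linked genes summed to 8.72, against 3.94 to 4.04 on the MIG arrays. Whatever this marks cannot be told apart from Meis1 in the comparison with MIG. The Meis1 array was not used to choose the genes, but the MIG arrays it is set against were, and MIG is also the control of the comparison with miR-155. On the Meis1 array mast cell and basophil markers summed to 12.08 (13.83 to 14.06 in MIG) and monocyte and macrophage markers to 11.81 (13.93 to 14.01). Neutrophil markers summed to 12.50 (14.45 to 14.59) and progenitor markers to 13.62 (14.37 to 14.39). Stromal markers went the other way, at 9.21 (8.83 to 8.97). The part of these differences in what follows was not tested. Pcdh7 read 9.33 on the Meis1 array, above all other arrays, and the change from MIG was 1.92 ± 0.10 (limma SE, 1 array against 3, adjusted p = 8.39e-07), where the change with miR-155 was 0.79 ± 0.07. Aldh1a3 read 9.82, also above all others, a change of 1.66 ± 0.23 (adjusted p = 0.000749). Gpr65 read 9.37, above the 3 miR-155 arrays and below both MIY arrays, a change of 1.003 ± 0.20 (adjusted p = 0.00828). These 3 of the 10 genes rose in Meis1 against MIG and none fell, where 15.4% of all 16015 probe sets were called (5.97% higher and 9.39% lower).

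The other 7 genes did not pass against MIG. The Meis1 array had 7.71 for Smpdl3b, between the MIG and the miR-155 arrays (0.52 ± 0.36, adjusted p = 0.402). Vat1l stood at 6.85, close to MIG (0.11 ± 0.14, adjusted p = 0.696) and far below the 8.03 to 8.06 with miR-155. Gng11 at 6.22 had 0.15 ± 0.39 (adjusted p = 0.867).

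Of the falling genes, Ptprk read 5.33 on the Meis1 array, below the miR-155 arrays (-0.75 ± 0.29 against MIG, adjusted p = 0.117). Ndrg2 read 8.20, also below them (-0.86 ± 0.35, adjusted p = 0.134), Scin 8.32, among them (-0.71 ± 0.69, adjusted p = 0.578), and Dkkl1 7.68, between miR-155 and MIG (-0.32 ± 0.62, adjusted p = 0.802). Leaving out MIY array 1, MIY array 2 or both did not alter these changes, since no MIY array enters them, but altered their errors. Whether Smpdl3b, Scin, Ndrg2 and Ptprk passed depended on these errors.

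Meis1 against MIY is the comparison in which no array was used to choose the genes, and its arrays are all high in Y-linked genes. The median change of all probe sets was 0.23, so changes are given after each array was shifted to a common median, which left a median of 0.06. Pcdh7 was higher with Meis1 by 1.42 ± 0.11 (adjusted p = 1.45e-05), Aldh1a3 by 2.80 ± 0.24 (adjusted p = 2.37e-05) and Vat1l by 1.15 ± 0.14 (adjusted p = 0.000249). Gpr65 was lower by -0.63 ± 0.21 (adjusted p = 0.0388), a call absent without the shift (adjusted p = 0.11). Thus 4 genes passed with the shift and 3 without it, where 44.1% of probe sets were called without it (33.1% higher), 5297 higher and 1769 lower, against 3045 and 2611 with the shift. In the fit on these 3 arrays alone 0 passed (adjusted p of Aldh1a3 0.0724). The remaining 6 did not pass, and their values rest on MIY arrays that lie far apart. Leaving out either MIY array sets 1 array against 1, with all error from the other groups. In these fits, without the shift, Scin, Dkkl1 and Ptprk lay on opposite sides. They had -1.98, -1.25 and -0.62 without array 1, and 0.65, 1.05 and 0.45 without array 2.

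MIY and MIG differed for most of the 10 genes, on a high background over all genes, with 49.5% of probe sets called (9.10% higher and 40.4% lower, or 1457 and 6464, against 2632 and 3669 with the shift). The MIG arrays were among those that chose the genes, so these tests are not independent of the choice. In this comparison 7 of 10 passed, and 6 with the shift. Relative to a median change of -0.22 over all probe sets, Gpr65 was higher in MIY by 1.63 ± 0.15 (adjusted p = 4.98e-05), Smpdl3b by 1.45 ± 0.28 (adjusted p = 0.003) and Pcdh7 by 0.51 ± 0.08 (adjusted p = 0.00128). Aldh1a3 was lower by -1.14 ± 0.18 (adjusted p = 0.000944), Vat1l by -1.04 ± 0.10 (adjusted p = 7.04e-05) and Ndrg2 by -1.06 ± 0.27 (adjusted p = 0.0114). Ptprk passed without the shift (-0.67 ± 0.23, adjusted p = 0.0345) and not with it (adjusted p = 0.111), nor without MIY array 1 (-0.13, adjusted p = 0.247) or without MIG array 1, 2 or 3 (adjusted p from 0.0663 to 0.0755), with quantile normalization, with all probe sets or with the compared groups alone. Without MIY array 1, Scin (1.27, adjusted p = 0.000267) and Dkkl1 (0.93, adjusted p = 0.00278) were higher than MIG, and without MIY array 2 they were lower (-1.36 and -1.37). The vector cannot be told apart from whatever else sets the MIY arrays apart, the Y-linked genes included.

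The order of the 5 groups therefore differed from gene to gene. Pcdh7 ran knockout, MIG, MIY, miR-155 and Meis1, with no overlap between neighbours. Aldh1a3 and Vat1l were lowest in MIY, below the knockout, at 6.70 to 7.00 and 5.39 to 5.67. Gpr65 was highest in MIY, at 9.67 to 9.995. For Gng11, Scin, Dkkl1 and Ptprk the MIY arrays overlapped the groups next to them on both sides, for Smpdl3b they overlapped the miR-155 arrays, and for Ndrg2 the Meis1 and miR-155 arrays.

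Against MIY, the control that the design text names, the miR-155 arrays are given with no test, since they chose the genes. After the shift, Vat1l was higher with miR-155 by 2.36 ± 0.10, Aldh1a3 by 1.74 ± 0.18, Gng11 by 0.69 ± 0.31 and Pcdh7 by 0.30 ± 0.08. Gpr65, which rose from MIG to miR-155, stood at -1.03 ± 0.15 against MIY, and Smpdl3b at -0.26 ± 0.28. The falling genes had -0.73 ± 0.55 for Scin, -0.71 ± 0.49 for Dkkl1, 0.44 ± 0.27 for Ndrg2 and 0.06 ± 0.23 for Ptprk. Only Vat1l, Aldh1a3, Gpr65 and Pcdh7 had MIY arrays close together here. Without the shift, leaving out MIY array 1 or array 2 gave -1.89 or 0.74 for Scin, -1.70 or 0.59 for Dkkl1, -0.32 or 0.75 for Ptprk and 0.56 or -0.76 for Smpdl3b, each of which changed sign. The same runs gave 0.04 or 1.15 for Ndrg2 and 1.48 or 0.21 for Gng11.

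The 2 MIY arrays, of the same label and not used to choose the genes, differed from each other in the 10 genes. Scin read 7.67 on array 1 and 10.30 on array 2, a difference of -2.63 that exceeded that of 99.9% of all genes in size. Dkkl1 read 6.63 and 8.92, Ndrg2 7.27 and 8.38, and Ptprk 4.88 and 5.95. Smpdl3b (9.13 and 7.81) and Gng11 (6.44 and 5.17) differed the other way.

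In all, 6 of the 10 genes differed by more than 1 (log2) between these arrays, against 2.99% of all genes. Pcdh7, Aldh1a3, Gpr65 and Vat1l differed by 0.12 to 0.32. All 6 rising genes were higher and all 4 falling genes lower on array 1, whereas 50.5% of all genes were higher there. Among the other ordered genes, 73 of 105 rising ones were higher on array 1 and 127 of 182 falling ones were lower. In no pair of arrays within the knockout, MIG or miR-155 group (9 pairs) did any of the 10 genes differ by more than 1, and 0.31% to 0.747% of all genes did. Between MIY arrays 1 and 2, neutrophil markers summed to 14.56 and 13.76, eosinophil markers to 10.19 and 9.44, and mast cell and basophil markers to 12.26 and 12.14. The same sums were 13.66 and 13.33 for monocyte and macrophage markers and 9.93 and 9.42 for megakaryocyte and red cell markers. Progenitor markers summed to 13.98 and 13.89. Single markers within such sums lay far apart or close together on these arrays. Mrc1 spanned 7.58 to 9.60 and Cd34 9.36 to 10.70, but Cd68 spanned 11.17 to 11.18 and Kit 9.32 to 9.37. The part of these markers in the difference was not tested.

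**Figure D3:**
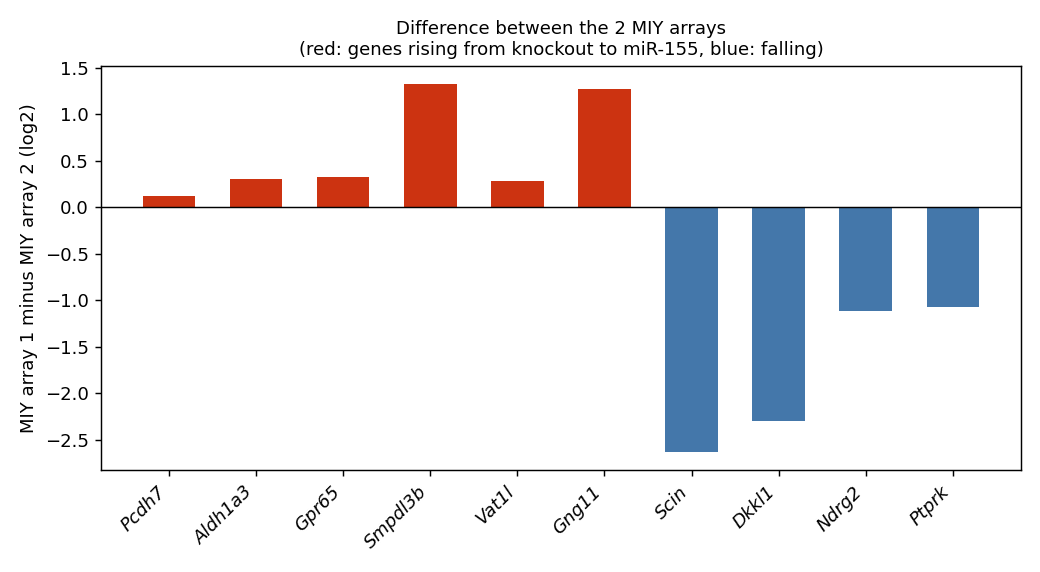
Log2 value on MIY array 1 minus that on MIY array 2 for the 10 genes, in red for those that rise from knockout to miR-155 and in blue for those that fall. All red bars point up and all blue bars down, from 0.12 for Pcdh7 to -2.63 for Scin.

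Some of the 10 genes followed each other and a few other genes over the 12 arrays. These correlations describe 12 points that share their groups, with the MIY and Meis1 arrays far out. Weakly related pairs were Gpr65 and Vat1l (r = -0.06), Vat1l and Ndrg2 (-0.03) and Aldh1a3 and Gpr65 (0.19). Scin and Dkkl1 had r = 0.96, and Ptprk and Ndrg2 r = 0.96. The genes most like the others were Prkacb, a catalytic subunit of protein kinase A, for Pcdh7 (r = 0.98), Lrrc49 for Aldh1a3 (0.95), the immunoproteasome subunit Psmb9 for Gpr65 (0.93) and the centromere gene Cenpo for Smpdl3b (0.93). For Vat1l it was the mitochondrial thiolase Acat1 (0.95), for Gng11 the pyridoxal kinase Pdxk (0.93), for Dkkl1 the plakophilin Pkp2 (0.97), for Ndrg2 the meiotic cohesin Rec8 (0.98) and for Ptprk the arginine deiminase Padi4 (0.97). Over the 9 arrays of the ordered groups these r ranged from 0.84 (Psmb9) to 0.99 (Pkp2).

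Relatives of the 10 genes by family or pathway, none of which the rule chose, could be tested in the 3 ordered groups. Their lists were chosen with earlier results of these data known, so the shares called are no independent test. Of 140 listed relatives 126 were measured. With miR-155 against MIG, 1 rose and 9 fell (7.94%, where 3.29% of all probe sets were called, 0.612% higher and 2.68% lower), with a median change of -0.06 against -0.01 over all. With miR-155 against the knockout, which shares the miR-155 arrays, 2 rose and 8 fell (7.94%, against 4.06% of all probe sets, 1.09% higher and 2.98% lower), with a median of -0.03 against 0.00. Between the knockout and MIG limma called 0 of 126, with 4 at an unadjusted p under 0.05, where 0.0312% of all probe sets were called, and the median was -0.02 as over all. The number called against MIG was 6 without miR-155 array 1 or 3, and 16 without either MIY array or on the 9 arrays alone. Against the knockout it was 6 without miR-155 array 3 or knockout array 2, and 16 in the same wider settings. The shares of all probe sets above (3.29% and 4.06%) come from the fit on all arrays. No such share is given for the fits with arrays left out, so their counts of relatives have no background to be set against.

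Among sphingolipid enzymes (21 measured), the nearest relative of Smpdl3b moved opposite to it. Smpdl3a, a secreted phosphodiesterase, read 9.34, 9.44 and 9.23 in MIG, 9.28, 9.61 and 9.36 in the knockout and 7.79, 8.02 and 7.81 with miR-155. Its knockout and MIG arrays overlapped, and all 3 miR-155 arrays lay lower. The change was -1.46 ± 0.25 against MIG (adjusted p = 0.0117) and -1.54 ± 0.25 against the knockout (adjusted p = 0.0074). The call against MIG was lost without MIG array 2 or miR-155 array 1 or 3 (adjusted p up to 0.0562), and that against the knockout was kept in all 22 alternatives.

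The ceramide synthase Cers4 rose with miR-155, by 0.74 ± 0.15 against MIG (adjusted p = 0.0275) and 0.73 ± 0.15 against the knockout (adjusted p = 0.0263). The lyase Sgpl1, which breaks down sphingosine 1-phosphate, fell against MIG by 0.45 ± 0.09 (adjusted p = 0.0261), while its change against the knockout did not pass. The calls of Cers4 and Sgpl1 were lost with all probe sets and in several runs without 1 array, and that of Sgpl1 also with the replicate block, with adjusted p up to 0.119 for Cers4 and 0.111 for Sgpl1 against MIG, and up to 0.103 for Cers4 against the knockout.

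In the gelsolin family and other actin-severing proteins (13 measured), 3 relatives of Scin fell with miR-155. Advillin (Avil) changed by -0.63 ± 0.07 (adjusted p = 0.00158), gelsolin (Gsn) by -0.58 ± 0.07 (adjusted p = 0.00166) and the capping protein Capg by -0.46 ± 0.08 (adjusted p = 0.013). Against the knockout the same 3 genes had -0.68 ± 0.07, -0.47 ± 0.07 and -0.42 ± 0.08 (adjusted p = 0.000927, 0.00409 and 0.017). Avil read 6.49, 6.42 and 6.43 in MIG, 6.51, 6.45 and 6.51 in the knockout and 5.72, 5.90 and 5.81 with miR-155, so that knockout and MIG overlapped where those of Scin did not. The calls of Capg were lost without miR-155 array 1 or 3, without MIG array 2 (against MIG) and without knockout array 2 (against the knockout), with adjusted p up to 0.0728.

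Of the cadherins and protocadherins (11 measured), E-cadherin (Cdh1) fell with miR-155, with a change of -1.32 ± 0.14 against MIG (adjusted p = 0.00117) and -1.23 ± 0.14 against the knockout (adjusted p = 0.00134). Cdh1 read 9.92, 9.83 and 10.05 in MIG, 9.71, 9.79 and 10.03 in the knockout and 8.59, 8.78 and 8.46 with miR-155, opposite to Pcdh7. Of the receptor tyrosine phosphatases (12 measured), Ptprg fell, with changes of -0.91 ± 0.14 against MIG (adjusted p = 0.00686) and -0.92 ± 0.14 against the knockout (adjusted p = 0.00551).

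In the retinoic acid pathway (16 measured), the dehydrogenase Dhrs9 fell, with changes of -0.59 ± 0.09 against MIG (adjusted p = 0.00626) and -0.41 ± 0.09 against the knockout (adjusted p = 0.0337). The retinoid receptor Rxra had -0.53 ± 0.08 (adjusted p = 0.00781) and -0.51 ± 0.08 (adjusted p = 0.00813), lower in both. The call of Dhrs9 against the knockout was lost with the replicate block, with the compared groups alone, with all probe sets, and without MIG array 1, 2 or 3, miR-155 array 2 or 3 or knockout array 2 or 3 (adjusted p up to 0.125). Of the G protein gamma and beta subunits (14 measured), Gnb5 rose against the knockout by 0.43 ± 0.10 (adjusted p = 0.0412) and had 0.39 ± 0.10 against MIG (adjusted p = 0.0702). The first call was lost with all probe sets, without any 1 array of the miR-155 or knockout group, or MIG array 1 or 3 (adjusted p up to 0.143). No relative passed in either comparison among the NDRG family (3 measured), proton-sensing receptors and their cyclic AMP partners (13), the VAT1 and quinone reductase family (9) or the Wnt antagonists and their pathway genes (14).

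**Figure D4:**
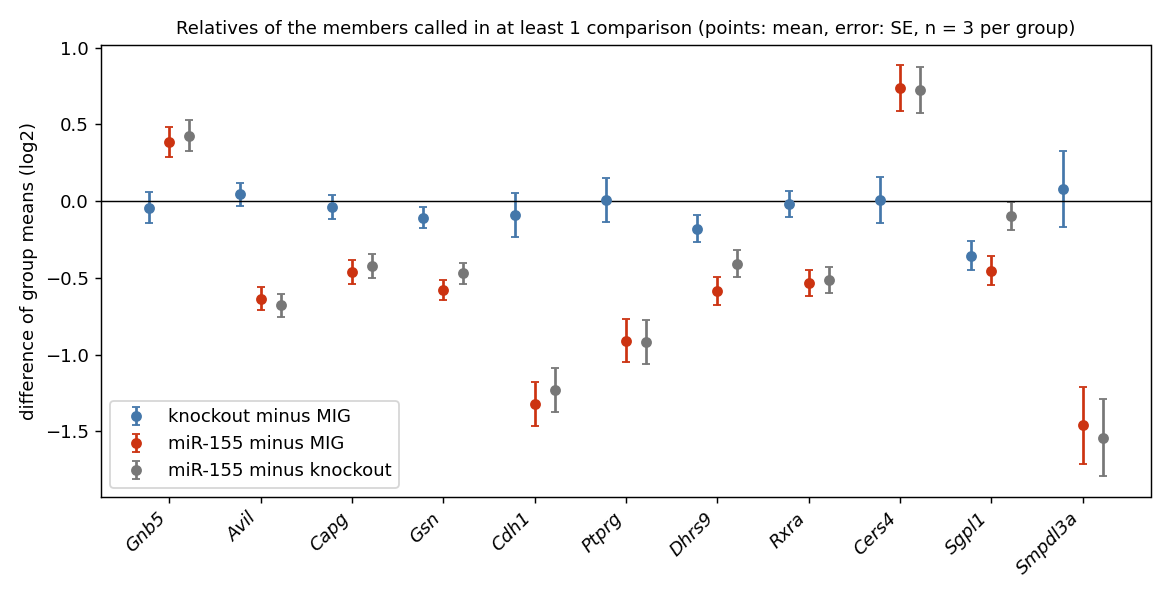
Difference of group means (log2, vertical axis) with limma standard errors for the 11 relatives that passed in at least 1 comparison, as knockout minus MIG (blue), miR-155 minus MIG (red) and miR-155 minus knockout (grey), 3 arrays per group. The blue points lie near 0 except for Sgpl1, whose knockout value also lay below MIG without passing, and the red and grey points lie below 0 except for Gnb5 and Cers4.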

How the data were processed

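The values are log2 signals as the authors deposited them, for 23332 probe sets on each of 12 arrays. The submitters' processing notes name RMA and the Affymetrix Expression Console, with no version. The platform annotation gives a gene symbol to 16015 probe sets, 1 symbol to 14996 of them, and the probe set of highest mean stands for a gene. A model of group means over all 12 arrays used limma 3.58.1 under R 4.3.3 (7 residual and 3.06 prior degrees of freedom). P-values were adjusted by Benjamini-Hochberg over the 16015 probe sets, with calls at an adjusted p under 0.05. The fit was tested on simulated data. The members, the lists of relatives and markers and the comparisons were chosen with earlier results of these data known. Named are all members, up to 4 called relatives per list and comparison, the genes most correlated with each member, and the ordered genes with the widest gaps, without predicted genes. Other settings were quantile normalization, a shift of each array to a common median, a filter on dim probe sets, all probe sets, the mean of a gene's probe sets, a variance trend, a replicate block, the compared groups alone, and leaving out each array. P-values measure the spread between the arrays, whose number limits the precision.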

Additional observations from a re-analysis of the deposited data

How the results depend on the processing

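All 10 genes kept their order over the 9 arrays under quantile normalization and the median shift. The other alternatives could not break it, since leaving out an array creates no overlap and each gene has 1 probe set. Counts of members called ranged from 6 to 9 for MIY against MIG when 1 array was left out, from 3 to 8 for Meis1 against MIY, and from 3 to 7 for Meis1 against MIG. With the compared groups alone they were 0 for Meis1 against MIY, where 3 arrays leave 1 residual degree of freedom, and 6 for Meis1 against MIG. Without both MIY arrays the changes of Meis1 against MIG stayed the same, since no MIY array enters them. Relatives called ranged from 6 to 16 against MIG and from 6 to 16 against the knockout without 1 array. They numbered 16 in both on the 9 ordered arrays and without both MIY arrays, which are settings chosen after seeing the data. No share of all probe sets is given for the fits with arrays left out, so these counts have no background to be set against. Quantile normalization moved the split of all probe sets called from 98 higher and 429 lower to 172 and 420 (miR-155 against MIG), from 174 and 477 to 277 and 453 (against the knockout), and from 956 and 1504 to 1308 and 1399 (Meis1 against MIG). For the knockout against MIG, 0 relatives were called in all 22 alternatives. Signs turned mainly without 1 MIY array, and Scin in MIY against MIG, at -0.04, also turned with the median shift (0.13) and without MIG array 1 (0.08). For MIY against MIG, Scin had 1.27 without array 1 and -1.36 without array 2, Dkkl1 0.93 and -1.37, and Gng11 -0.90 and 0.37. For Meis1 against MIY, the values in the same order were -1.98 and 0.65 for Scin, -1.25 and 1.05 for Dkkl1, -0.62 and 0.45 for Ptprk, 1.05 and -0.22 for Gng11, and -0.18 and 0.93 for Ndrg2. For miR-155 against MIY they were 0.56 and -0.76 for Smpdl3b, -1.89 and 0.74 for Scin, -1.70 and 0.59 for Dkkl1, and -0.32 and 0.75 for Ptprk. The cause was not tested. Of the alternatives for single genes, 1568 gave the same answer, 60 lost a call, 26 gained one, 13 moved a value by more than the spread and 9 were reversed. Replicate numbers shared between titles were not treated as pairing, since the labels name no shared batch and same-numbered deviations correlated at -0.07 to 0.16, some below 0. In 11 of 18 comparisons of an array with another group, it correlated best with its own number, a hint of pairing from the data and not from the design. With the replicate number as a block, 7 members were called for MIY against MIG, where 1401 of all 16015 probe sets were higher and 6239 lower. With this block 10 relatives were called for miR-155 against MIG, where 74 of all probe sets were higher and 393 lower. For miR-155 against the knockout 9 were called, where 150 were higher and 439 lower, and for the knockout against MIG 0, as over all probe sets. Sgpl1 (against MIG) and Dhrs9 (against the knockout) lost their calls. Gng11 and Ptprk fell out under the filter on dim probe sets, and scanner background was not used here, so signal over background is unknown.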

Other observations

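Other genes were ordered over the 9 arrays with gaps as wide as those of the 10 members. These values chose them, so they are given with no test. Among the rising ones, the casein gene Csn2 had the widest smallest gap (0.77, span 2.09 from knockout to miR-155), followed by Glyat, a glycine acyltransferase (0.34, span 0.92), the lymphocyte receptor Ly9 (0.29, span 0.86), Bcat1, which begins the breakdown of branched-chain amino acids (0.26, span 0.91), and Lrrc49 (0.24, span 0.86), which was also the gene most like Aldh1a3 over the 12 arrays. Among the falling ones were the adhesion molecule Ncam1 (gap 0.30, span -0.99), the BMP receptor Bmpr1a (0.27, span -0.72), the membrane protein Emp2 (0.25, span -0.87), the kinesin Kif21a (0.24, span -1.16) and the sialomucin Podxl (0.23, span -0.92). Over all ordered genes the median smallest gap was 0.03 for rising and 0.05 for falling ones, with median spans of 0.44 and -0.51.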
